A study of Amolops torrentis with 15 samples.

Results

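Whole brains of the torrent frog Amolops torrentis were compared between the stimulus settings labelled dark contrast and blank contrast, neither of which carries a sexual cue in its label. The members were chosen by the labelled stimulus alone: 3 dark contrast libraries and 3 blank contrast libraries, 6 of the 15 libraries of the series. The other 9 libraries came from brains of frogs given visual, acoustic or audiovisual stimuli, 3 each, and appear below as the cue brains. The series title describes the animals as female. All 15 libraries are labelled as whole brain, and no genotype, age or drug treatment is given for any group. The labels do not state how long a stimulus lasted, what a frog in either control saw, or whether a library held 1 brain or a pool. The comparison therefore asks whether brain RNA differed between the 2 backgrounds themselves.

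Nerve cells that have recently fired switch on immediate early genes, transcription factors such as fos and egr1 whose RNA appears within minutes and is soon cleared. Those factors are followed by effector genes that alter synapses, among them arc, which acts at excitatory synapses. Glutamate drives most fast excitation in a vertebrate brain, while GABA and glycine carry most fast inhibition. The RNA of their synthesis enzymes, transporters and receptor subunits is commonly read as a record of the corresponding neurons. Light reaching the brain can also act through opsins and the circadian clock, and handling can act through stress hormones and chaperones, so gene lists for all of these were examined.

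The deposited table gives reads per assembled transcript cluster, called a feature here, because a gene can be split over several features. Many features carry the symbol of their best Swiss-Prot match, written below with the letter case the table uses, since the case differs between features of 1 gene. Levels are given as CPM, the reads of a feature per 1000000 reads of its library after scaling between libraries. Libraries held 12071194, 14157432 and 12143927 estimated reads in dark contrast brains, against 12639388, 14549914 and 13420982 in blank contrast brains, a difference within the spread between libraries (exact permutation test, two-sided, p = 0.5, where 0.1 is the smallest p that 3 against 3 allows). The 8 features encoded by the mitochondrial genome took 5.28, 4.21 and 5.35% of reads in dark contrast brains and 5.62, 4.69 and 6.03% in blank contrast brains (exact permutation test, two-sided, p = 0.4). Correlations of log2 CPM between libraries averaged 0.938 within a group and 0.937 between the groups. Brain markers were present throughout: the neuronal list summed to 8760 to 9620 CPM in dark contrast brains and 8900 to 9460 CPM in blank contrast brains, and the oligodendrocyte and myelin list to 7280 to 8830 CPM against 6640 to 9790 CPM. The table lists no feature at 0 in any library, so no marker could be found absent.

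No gene passed the test between the backgrounds. Of 42619 features tested with edgeR's quasi-likelihood test, 0 had an adjusted p under 0.05 (0%), and the smallest adjusted p was 0.321. At an unadjusted p under 0.05, 2419 features stood out (5.68%), of which 1188 were higher in dark contrast brains (2.79%) and 1231 lower (2.89%). The 3 dark contrast libraries lay entirely above or below the 3 blank contrast libraries in 4740 features (11.1%), above in 2252 (5.28%) and below in 2488 (5.84%). DESeq2, which estimates the spread of each feature differently, called 46 of 34340 features (0.134%), 25 higher and 21 lower in dark contrast brains, and all 46 had an unadjusted p under 0.05 in edgeR. A linear model in limma on log2(FPKM + 1) called 0, with 2522 features at an unadjusted p under 0.05. The features described below by name are those with the smallest unadjusted p, SUPT6H as a DESeq2 call, and members of the gene lists, and their log2 fold changes (dark contrast minus blank contrast) are estimates that missed the adjusted threshold in edgeR. All list members carry a symbol, so the lists are read against the 17950 features with a symbol: 54.7% of these had a log2 fold change below 0, against 50% of all features, with a median of −0.03, 3.74% were lower and 2.19% higher at an unadjusted p under 0.05, and 7.26% lay wholly below and 4.21% wholly above the blank contrast brains.

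Among features with a symbol, Lmln, a zinc metallopeptidase, and a drebrin feature had the smallest p. Its feature Cluster-46846.191376 was read at 2.02, 3.64 and 2.51 CPM in dark contrast brains, against 11.3, 8.63 and 8.12 CPM in blank contrast brains. All 3 dark contrast brains were low, and the cue brains, at 6.96 to 13.4 CPM, covered the blank contrast levels. The log2 fold change was −1.77 ± 0.277 (SE), with an adjusted p of 0.321 in edgeR and 2.68e-05 in DESeq2. A further Lmln feature was read at 8.91, 12.6 and 10.3 CPM in dark contrast brains and at 7.5, 12.2 and 10.8 CPM in blank contrast brains, and reads summed over both features differed by a log2 fold change of −0.51.

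DBN1 encodes drebrin, which binds actin in the spines that receive excitatory input. Its feature Cluster-46846.142037 was read at 4.37, 7.21 and 6.3 CPM in dark contrast brains, against 14.8, 27.6 and 17.6 CPM in the blank contrast brains (log2 fold change −1.74, SE 0.279, adjusted p 0.321 in edgeR). A neighbouring feature, Cluster-46846.142050, was read at 9.67, 9.89 and 10.1 CPM, against 20.6, 14.9 and 19.4 CPM (log2 fold change −0.89, SE 0.189, adjusted p 0.709 in edgeR). Neither feature overlapped between the groups, and the 3 dark contrast brains were also below the 9 cue brains in both. They hold only 5.16% and 5.6% of the reads of the DBN1 symbol, however, and over its 5 features together the log2 fold change was −0.24.

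INPP5A, a phosphatase that removes the calcium-releasing messenger inositol trisphosphate, had a feature at 1.85, 5.91 and 4.2 CPM in dark contrast brains, against 26.7, 28.7 and 29.3 CPM in the blank contrast brains (log2 fold change −2.81, SE 0.548). The groups were far apart, yet the cue brains lay between them at 6.41 to 25.2 CPM, so the dark contrast brains were the lowest of the series and the blank contrast brains the highest. The other INPP5A feature overlapped, at 45.1, 55.1 and 64.4 CPM in dark contrast brains and 67.6, 48.6 and 61.7 CPM in blank contrast brains. Khk, the kinase that phosphorylates fructose, had a feature, among several of the symbol, at 1.35, 1.37 and 1.62 CPM in dark contrast brains, against 6.65, 3.39 and 5.36 CPM in the blank contrast brains (log2 fold change −1.82, SE 0.368). Here the blank contrast brains were like the cue brains, at 3.71 to 13.7 CPM, and the dark contrast brains were below all 12 others. GLYCTK, a glycerate kinase that takes up products of fructose and serine breakdown, stood the opposite way, at 9.08, 15.3 and 10.4 CPM in dark contrast brains and 3.48, 1.13 and 2.16 CPM in the blank contrast brains (log2 fold change 2.36, SE 0.536). Its dark contrast levels exceeded those of the 9 cue brains, 0.772 to 7.37 CPM, and GLYCTK has a single feature.

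DDX5, an RNA helicase of splicing and transcription, had a feature at 225, 182 and 202 CPM in dark contrast brains, against 325, 324 and 309 CPM in the blank contrast brains (log2 fold change −0.65, SE 0.125). All 3 dark contrast brains were under the lowest cue brain, at 229 CPM, but the 6 DDX5 features together gave −0.09. SUPT6H, a histone chaperone that travels with RNA polymerase, was read at 195, 188 and 190 CPM in dark contrast brains and 231, 244 and 238 CPM in the blank contrast brains (log2 fold change −0.32, SE 0.08, adjusted p 0.777 in edgeR and 0.0056 in DESeq2). It is a single feature with little spread inside either group, and the cue brains, at 217 to 239 CPM, lay beside the blank contrast brains. CREB3, a transcription factor anchored in the endoplasmic reticulum, also has a single feature and was read at 67.1, 59.2 and 46.1 CPM in dark contrast brains, against 94.9, 106 and 86.8 CPM in the blank contrast brains (log2 fold change −0.74, SE 0.156). The dark contrast brains were again the lowest of the series, under cue brains at 72 to 119 CPM. For sp8, a zinc finger factor of forebrain development, the blank contrast brains stood apart instead: 3.03, 2.34 and 1.7 CPM in dark contrast brains, 7.97, 5.16 and 7.3 CPM in blank contrast brains, and 1.39 to 4.52 CPM in cue brains.

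Pinlyp and UACA were also among the 12 features with a symbol and the smallest p that were lower in dark contrast brains. Pinlyp, a phospholipase inhibitor, was read at 6.98, 6.87 and 10.7 CPM in dark contrast brains, against 20, 24.5 and 21.2 CPM in blank contrast brains. UACA, an ankyrin repeat protein linked to cell death, was read at 6.9, 3.57 and 12.7 CPM, against 30.8, 14.6 and 40.9 CPM. Neither overlapped, although the spread inside both groups was wide for UACA. All of the 12 except CREB3 belong to symbols with several features. The levels given for Khk, sp8, Pinlyp and UACA are thus those of a single feature among several. Summed reads of these symbols are not given here. Of the 12, 11 were called by DESeq2, and in 10 the 3 dark contrast brains lay below the other 12 libraries. Those 12 features were selected for their difference, so the counts describe them and test nothing. Over all features, dark contrast brains lay below the other 12 libraries in 0.347%.

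Pemt, which makes phosphatidylcholine from phosphatidylethanolamine, was read at 6.39, 6.94 and 9.86 CPM in dark contrast brains, against 3.02, 4.03 and 2.23 CPM in the blank contrast brains (log2 fold change 1.32, SE 0.308). Cyp27a1, a mitochondrial sterol hydroxylase, was read at 6.64, 4.67 and 5.17 CPM, against 2.86, 2.12 and 3.05 CPM (log2 fold change 1.03, SE 0.254). The groups did not overlap for either enzyme. Pemt has a single feature, whereas the Cyp27a1 feature is among several of its symbol, whose summed reads are not given here. ZMYND8, a reader of histone marks, was read at 88.1, 89 and 101 CPM in dark contrast brains, against 33.6, 44.5 and 36.4 CPM in the blank contrast brains (log2 fold change 1.28, SE 0.299). For ZMYND8 the blank contrast brains were the unusual ones, below all 9 cue brains at 46.8 to 114 CPM, and both its features together gave 0.84.

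Ikbkg, the regulatory subunit of the kinase complex that activates NF-kappaB, had a feature at 11, 14.7 and 15.1 CPM in dark contrast brains, against 5.65, 3.47 and 5.36 CPM in blank contrast brains. MINK1, a kinase of the Ste20 family, had 1 at 22.7, 19 and 17.1 CPM, against 12.1, 8.2 and 12.9 CPM. AP1M1, a clathrin adaptor subunit of the trans-Golgi network, had 1 at 17.1, 19 and 20.4 CPM, against 11.1, 6.86 and 7.45 CPM. None of the 3 overlapped, but each is a part of its symbol's reads, and the sums over all features of Ikbkg, MINK1 and AP1M1 gave log2 fold changes of 0.25, 0.17 and 0.04. The RNA-binding proteins TIAL1 and zc3h14 likewise had single features at log2 fold changes of 1.61 and 2.24, beside sums over all features of 0.10 and 0.06. Adjusted p-values of the 12 higher features lay between 0.709 and 0.777 in edgeR, and those of the 12 lower features between 0.321 and 0.777.

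**Figure D1:**
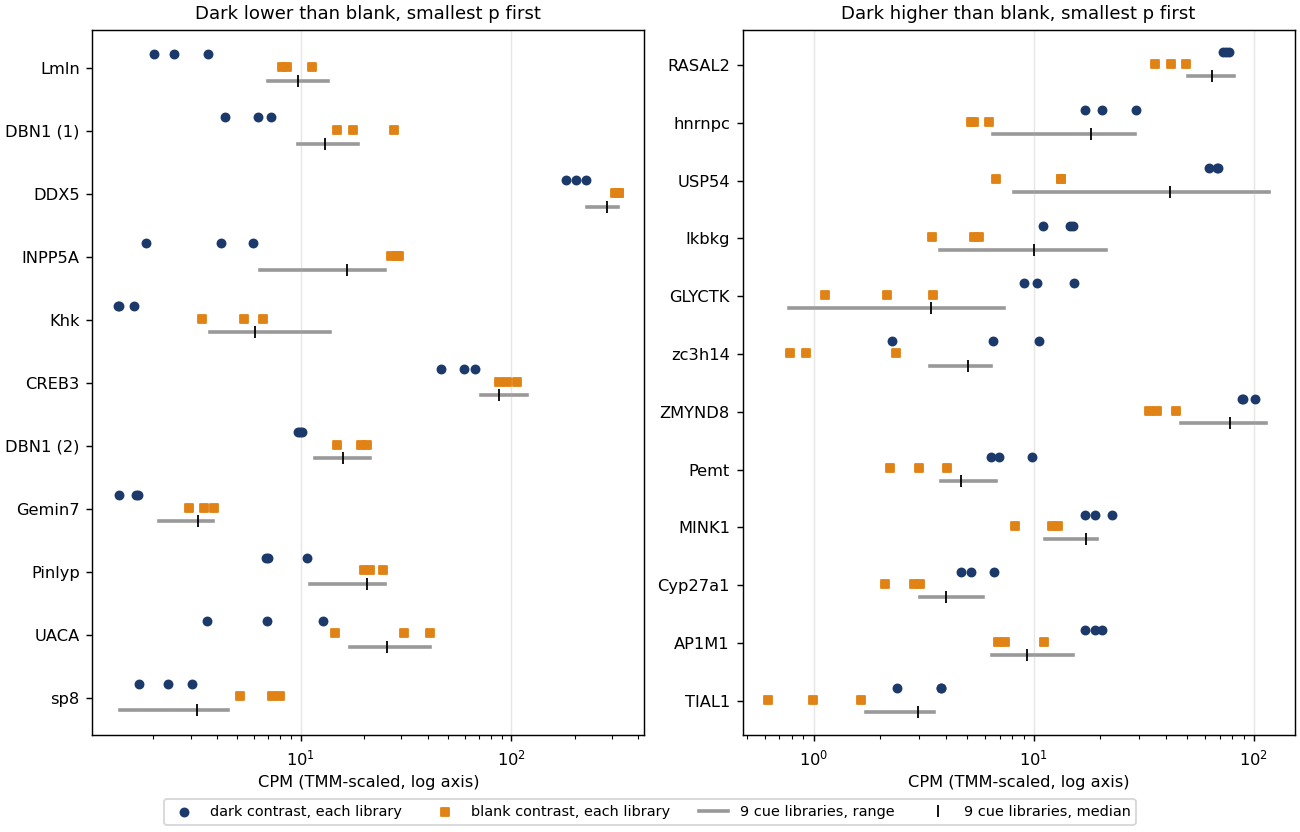
Features with a symbol and the smallest unadjusted p, lower (left) and higher (right) in dark contrast brains, with CPM of each library on a log axis for dark contrast and blank contrast brains and the range and median of the 9 cue brains. The groups are separate in each feature drawn except zc3h14, and in most lower features the dark contrast points lie under the cue range while in 4 higher features the blank contrast points do.

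A pair of features without a symbol were as far apart. Cluster-46846.200327 was read at 3.95, 3.37 and 3.96 CPM in dark contrast brains, against 0.387, 0.849 and 1.04 CPM in the blank contrast brains (log2 fold change 2.29, SE 0.342, adjusted p 0.321 in edgeR). Cluster-46846.137583 was read at 0.168, 0.618 and 0.242 CPM, against 1.55, 5.09 and 3.72 CPM (log2 fold change −3.26, SE 0.679, adjusted p 0.709 in edgeR). The table gives neither a gene name.

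Several symbols had features that stood in opposite directions, so that the gene's summed reads gave a log2 fold change near 0. USP54, a relative of ubiquitin peptidases, had 1 feature at 68.2, 68.7 and 62.8 CPM in dark contrast brains, against 13.3, 6.72 and 13.3 CPM in blank contrast brains, a log2 fold change of 2.59 ± 0.559 (SE). Another USP54 feature was read at 15.6, 24.2 and 30.5 CPM in dark contrast brains, against 50.1, 57 and 53.7 CPM in blank contrast brains, a log2 fold change of −1.19. Both pairs of groups were separate, and the sum over the 5 USP54 features was 0.12. Cue brains ranged from 8.17 to 118 CPM for the feature that was higher in dark contrast brains, wider than both control groups together.

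hnrnpc, which binds newly made RNA in the nucleus, showed the same arrangement. A feature at 17.1, 29.1 and 20.4 CPM in dark contrast brains and 5.18, 6.29 and 5.36 CPM in blank contrast brains stood beside the most abundant one at 139, 128 and 178 CPM, against 193, 231 and 239 CPM, and both were separate. The sum over the 8 hnrnpc features was 0.17.

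RASAL2, which switches Ras proteins off, and Gemin7, a subunit of the machine that assembles splicing particles, completed this group. A RASAL2 feature was read at 77, 74.9 and 72.5 CPM in dark contrast brains, against 49.4, 42.3 and 35.6 CPM in blank contrast brains, and another at 51.4, 101 and 88.3 CPM, against 114, 115 and 142 CPM. One Gemin7 feature was read at 1.68, 1.65 and 1.37 CPM, against 2.94, 3.47 and 3.87 CPM, and the other at 4.29, 6.39 and 7.19 CPM, against 2.86, 3.25 and 4.91 CPM. The groups were separate in all of these except the more abundant Gemin7 feature. Summed reads gave 0.15 for RASAL2 and 0.12 for Gemin7. Of the 24 features with the smallest p, 21 belong to symbols with several features, and for 4 of those 21, 1 higher and 3 lower, the summed reads also had an unadjusted p under 0.05. Over all 10235 symbols tested on their summed reads, 657 had an unadjusted p under 0.05 (6.42%) and 0 passed adjustment in edgeR. Whether such features are transcript forms, alleles or separate genes cannot be told apart from the table.

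**Figure D2:**
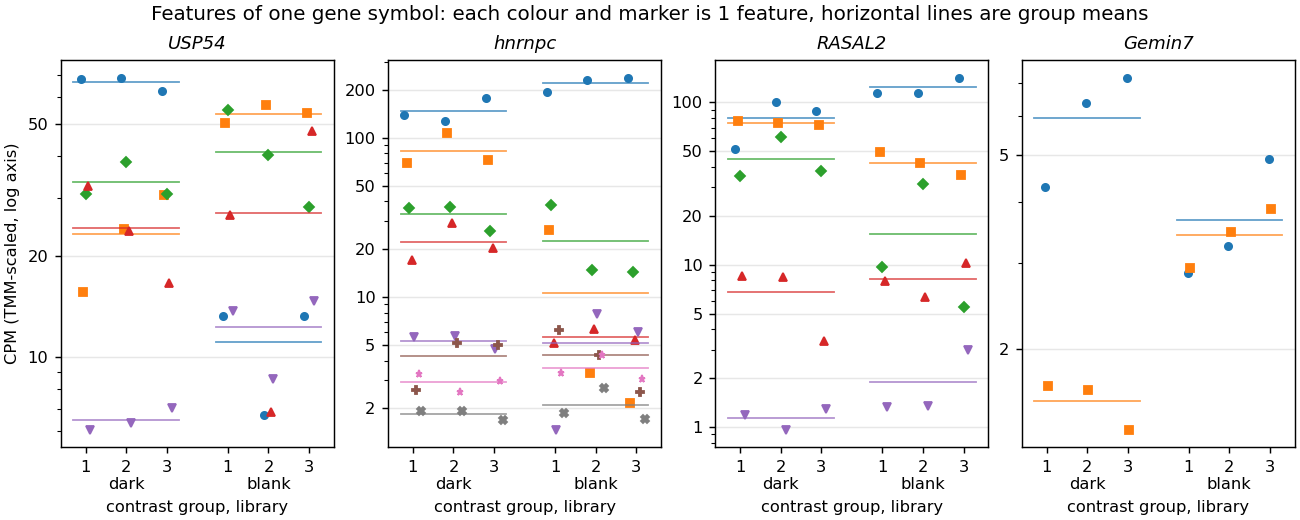
CPM on a log axis for features that share a symbol, in USP54, hnrnpc, RASAL2 and Gemin7. Points are libraries, dark contrast left of blank contrast, and horizontal lines are group means; within each symbol at least 1 feature is higher and at least 1 lower in dark contrast brains.

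Immediate early transcription factors were low in dark contrast brain 2, and without that brain the list was near features with a symbol in sign and median. Of their 21 features, 16 had a log2 fold change below 0 (76.2%, against 54.7% of features with a symbol), and the median was −0.18, against −0.03. At an unadjusted p under 0.05, 5 were lower (23.8%, against 3.74%) and 0 higher. The groups did not overlap in 2 of the 21, both lower (9.52%, against 7.26%). Dark contrast brain 2 was the lowest of the 6 brains in 14 of the 21 features (66.7%, against 16.5% of features with a symbol). It was the lowest of all 15 brains in 11 (52.4%, against 7.34% of features with a symbol). The list's mean log2 CPM, centred on the mean of the 15 libraries, was 0.11, −1.01 and 0.10 in dark contrast brains and 0.11, 0.32 and 0.04 in blank contrast brains, with cue brains between −0.27 and 0.18. Without dark contrast brain 2, 12 of the 21 features were lower (57.1%, against 54.7% of features with a symbol). The median was −0.02, against −0.04. In that fit 2 of the 21 were lower and 0 higher at an unadjusted p under 0.05, against 816 and 427 of 17950 features with a symbol.

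The separate immediate early features were JUND and NPAS4, and the effectors lying wholly below were CYR61 and ARC. JUND, a subunit of the AP-1 transcription factor, was read at 138, 85.5 and 139 CPM in dark contrast brains, against 156, 168 and 166 CPM in the blank contrast brains (log2 fold change −0.44, SE 0.157, adjusted p 0.854 in edgeR). CYR61, a secreted matrix protein induced by growth factors and activity, was read at 7.4, 5.43 and 6.55 CPM, against 15.2, 17.8 and 10.7 CPM (log2 fold change −1.18, SE 0.291, adjusted p 0.777 in edgeR). Leaving out dark contrast brain 2 gave −0.24 for JUND and −1.06 for CYR61, so the 2 genes rested on that brain to different degrees.

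Other well-known activity genes had dark contrast brain 2 far below the rest. NPAS4, a factor that shapes inhibitory input onto active neurons, was read at 10.2, 2.2 and 14.4 CPM in dark contrast brains, against 21, 19.7 and 15.6 CPM in blank contrast brains. nr4a1, an orphan nuclear receptor induced by activity, was read at 35.1, 9.48 and 53.3 CPM, against 70.3, 84.2 and 52.1 CPM. The groups did not overlap for NPAS4 and overlapped for nr4a1 by a small margin. FOS was read at 17.8, 1.92 and 23.1 CPM, against 28.1, 25.5 and 14.6 CPM, and JUNB at 46.8, 14.7 and 71.5 CPM, against 54.4, 67.8 and 68.1 CPM. Without dark contrast brain 2 the log2 fold changes were −0.61 for NPAS4, −0.64 for nr4a1, −0.15 for FOS and −0.10 for JUNB. The larger JUN feature stood the other way. It was read at 90.1, 80 and 84.5 CPM in dark contrast brains, against 83.9, 62.6 and 71.9 CPM in blank contrast brains. Its deposited description is transcription factor jun-D-like, so its identity is uncertain. The smaller JUN feature was read at 30.8, 5.43 and 46.9 CPM, against 39.1, 23.9 and 11.4 CPM (log2 fold change 0.16). Dark contrast brain 2 was the lowest of the series in that smaller feature.

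The 32 features of activity-induced effectors were near the background, with a median of −0.05, against −0.03, and 19 below 0 (59.4%, against 54.7%). At an unadjusted p under 0.05, 3 were lower (9.38%, against 3.74%) and 0 higher. There were 2 wholly below the blank contrast brains (6.25%, against 7.26%) and 2 wholly above (6.25%, against 4.21%). Without dark contrast brain 1 the median was −0.27, against −0.04 for features with a symbol. Without dark contrast brain 2 it was −0.03, against −0.04, and 16 of the 32 were below 0 (50%, against 54.7%). ARC was read at 66.8, 20.4 and 75.7 CPM in dark contrast brains, against 129, 115 and 82.1 CPM in the blank contrast brains (log2 fold change −0.999, SE 0.351). Its groups were separate, and without dark contrast brain 2 the log2 fold change was −0.61. nrn1-b, a neurite growth factor, was among those higher, at 180, 165 and 170 CPM in dark contrast brains and 154, 154 and 145 CPM in blank contrast brains. Dark contrast brain 2 also had the lowest mitochondrially encoded share of the 6 brains, 4.21% of reads, and the highest pituitary RNA of the 6. The part of either in the low activity genes was not tested.

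**Figure D3:**
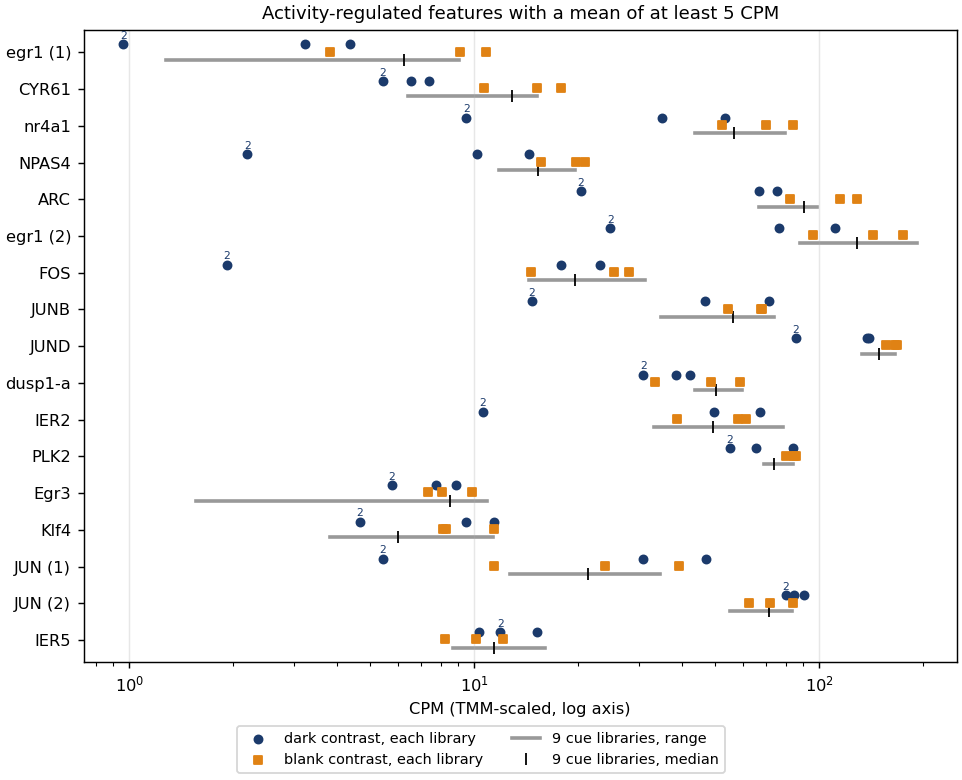
CPM on a log axis for 17 activity-regulated features with a mean of at least 5 CPM, in dark contrast brains, blank contrast brains and the 9 cue brains (range and median). All immediate early features at that level are drawn, but of the effectors only ARC, CYR61, dusp1-a and PLK2, each lower in dark contrast brains. Effectors left out include higher ones: over the whole effector list 19 of 32 features were below 0 and 13 above. Dark contrast brain 2 is marked with its number and lies under every other point in FOS, NPAS4, nr4a1, JUNB and ARC.

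RNAs of inhibitory synapses tended to be lower in dark contrast brains. Of 61 features of the GABA and glycine list, 40 had a log2 fold change below 0 (65.6%, against 54.7% of the 17950 features with a symbol), and the median was −0.12, against −0.03. At an unadjusted p under 0.05, 4 were lower (6.56%) and 0 higher, against 3.74% lower and 2.19% higher among features with a symbol. In 13 features (21.3%) the 3 dark contrast brains were wholly below the 3 blank contrast brains, against 7.26% of features with a symbol, and in 0 wholly above, against 4.21%. Summed CPM of the list was 4000, 4700 and 4270 in dark contrast brains and 4910, 4810 and 4840 in blank contrast brains. Whole brain RNA cannot tell fewer cells of a type from less RNA per cell.

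Gad2, which makes GABA at terminals, had a feature at 215, 92.5 and 196 CPM in dark contrast brains, against 445, 244 and 256 CPM in the blank contrast brains (log2 fold change −0.91, SE 0.326, adjusted p 0.854 in edgeR). The groups were separate for it, but the other Gad2 feature was read at 64.7, 242 and 145 CPM, against 131, 131 and 164 CPM, and the sum gave −0.49. GAD1, the related enzyme that makes most of the GABA in cell bodies, was read at 383, 547 and 436 CPM, against 524, 478 and 521 CPM, and overlapped. slc32a1, which loads GABA and glycine into vesicles, was separate by a small margin, at 479, 503 and 470 CPM in dark contrast brains and 540, 524 and 514 CPM in the blank contrast brains (log2 fold change −0.12).

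Transporters that clear GABA were lower in several features. All 4 features of Slc6a13, a GABA transporter of the meninges and barrier cells in mammals, had log2 fold changes below 0, and their sum was −0.62. Its most abundant feature was read at 13.7, 19.2 and 20.6 CPM in dark contrast brains, against 22.3, 25.8 and 23.9 CPM in blank contrast brains. Slc6a11, the glial GABA transporter, had features at 27.6, 33.9 and 28.2 CPM, against 38.4, 46.4 and 38 CPM, and at 60.2, 72.3 and 66.5 CPM, against 73.9, 106 and 76.8 CPM. All 3 of these features were separate between the groups. ABAT, which breaks GABA down, was separate at 14.5, 13.8 and 11.9 CPM, against 16.9, 19.2 and 18.2 CPM, but this feature holds 12.7% of the symbol's reads and the sum gave −0.10.

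Among GABA receptor subunits, Gabrb2 was read at 41, 49.8 and 45.7 CPM in dark contrast brains, against 56.8, 53 and 52.6 CPM in blank contrast brains, and GABRR1, a subunit first known from retina, at 3.62, 3.78 and 5.17 CPM, against 5.8, 5.94 and 7.74 CPM. Both were separate between the groups.

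The GABA and glycine levels were lowest in dark contrast brain 1. That brain was the lowest of the 6 in 29 of the 61 features (47.5%), against 21.3% of features with a symbol. The list's centred mean log2 CPM was −0.27, −0.01 and −0.08 in dark contrast brains and 0.12, 0.09 and 0.03 in blank contrast brains. Without it 37 of the 61 features were lower (60.7%, against 56.1% of features with a symbol) and the median was −0.06, against −0.04. In that fit 15 features still lay wholly below the blank contrast brains (24.6%, against 11.4% of all features). Another 5 lay wholly above (8.2%, against 10.5%). The shares of features with a symbol were not computed for these counts. Without dark contrast brain 2 instead, the median was −0.20, and 10 of the 61 features were lower and 0 higher at an unadjusted p under 0.05. Among features with a symbol, 816 of 17950 were lower and 427 higher in that fit. Longer features were lower in dark contrast brain 1 generally. The mean centred log2 CPM of the longest quintile minus that of the shortest was −0.249, −0.042 and −0.039 in dark contrast brains. It was −0.032, 0.056 and −0.014 in blank contrast brains, with cue brains between −0.11 and 0.139. In this list 50.8% of the features are in the longest quintile. Each feature was then centred on the median of its length quintile, a step chosen after the data were seen. The list median was −0.09 after that step, against −0.12 before it, and that of features with a symbol was −0.01, against −0.03.

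**Figure D4:**
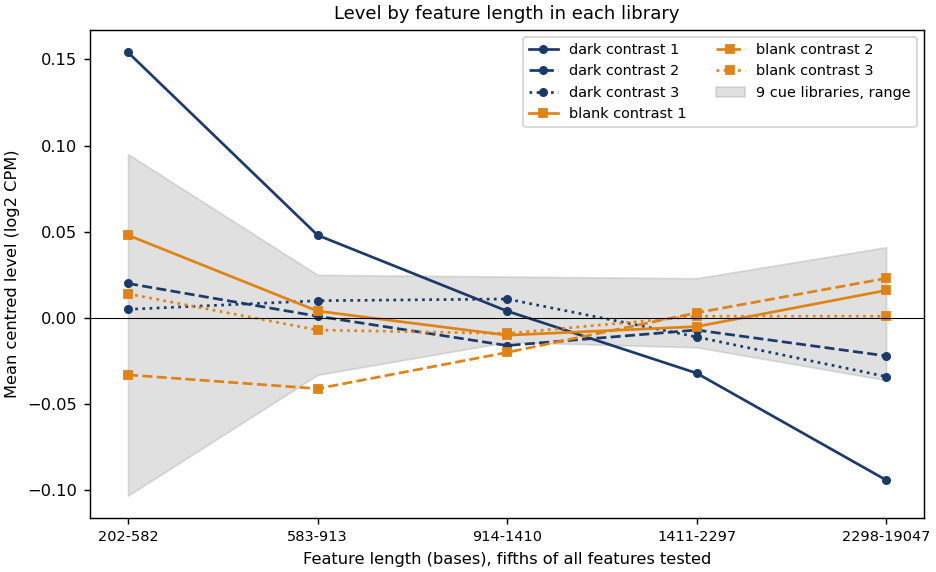
Mean log2 CPM, centred per feature on the mean of 15 libraries, by quintile of feature length from shortest to longest, for each dark contrast and blank contrast library, with the range of the cue brains shaded. Dark contrast brain 1 declines by 0.249 on the log2 scale between the shortest and longest quintiles, more than any other library drawn.

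Excitatory synapse RNAs had a median near that of the inhibitory list. Of 111 features of the glutamate list, 77 were below 0 (69.4%) with a median of −0.13. At an unadjusted p under 0.05, 4 were lower (3.6%, against 3.74% of features with a symbol) and 0 higher. Dark contrast brains were wholly below blank contrast brains in 12 features (10.8%, against 7.26%) and wholly above in 3 (2.7%, against 4.21%). Without dark contrast brain 1 the median was −0.06. Without dark contrast brain 2, 8 of 111 were lower and 1 higher at an unadjusted p under 0.05, against 816 and 427 of 17950 features with a symbol. In this list 61.3% of the features are in the longest quintile. With each feature centred on the median of its length quintile, the list median was −0.074, against −0.013 for features with a symbol. Reads summed per symbol gave a list median of −0.058.

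AMPA and kainate receptor subunits stood in both directions. GRIA1, an AMPA receptor subunit, was read at 119, 136 and 144 CPM in dark contrast brains, against 158, 170 and 156 CPM in the blank contrast brains (log2 fold change −0.28), in 1 of 9 features of the symbol that together gave −0.07. HOMER3, a scaffold of metabotropic glutamate receptors, was read at 21.9, 38.7 and 34.5 CPM, against 42.5, 53.8 and 49.4 CPM (log2 fold change −0.62). Both were separate between the groups. The kainate receptor subunit GRIK1 had a feature at 9.42, 10.4 and 11.4 CPM, against 15.5, 15.4 and 14.8 CPM, but a more abundant feature of the symbol stood the other way at 26.7, 27.5 and 27.4 CPM, against 22.7, 22.6 and 24.2 CPM. The summed GRIK1 reads gave 0.11. slc17a7, a vesicular glutamate transporter, was read at 407, 379 and 356 CPM, against 409, 474 and 488 CPM, and was separate by a narrow margin.

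Of 104 features of the vesicle release machinery, 70 were below 0 (67.3%) with a median of −0.08, and at an unadjusted p under 0.05 3 were lower (2.88%, against 3.74% of features with a symbol) and 1 higher. Without dark contrast brain 1 the median was −0.05, and with each feature centred on the median of its length quintile it was −0.052. Without dark contrast brain 2 it was −0.13, with 8 of 104 lower and 0 higher at that p, against 816 and 427 of 17950 features with a symbol. Rab3a, the GTPase on synaptic vesicles, was read at 318, 408 and 298 CPM in dark contrast brains, against 495, 473 and 453 CPM in the blank contrast brains (log2 fold change −0.47, SE 0.157). The blank contrast brains were the ones apart, above all 9 cue brains as well. UNC13A, which primes vesicles for fusion, was read at 40.5, 51.3 and 58.4 CPM, against 79.7, 75.2 and 70.7 CPM (log2 fold change −0.59, SE 0.164), although the 10 UNC13A features together gave −0.11. ERC1, a scaffold of the release site, stood higher at 4.04, 5.98 and 6.38 CPM in dark contrast brains and 3.09, 2.48 and 2.61 CPM in the blank contrast brains (log2 fold change 1.004).

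Monoamine genes were mixed. Of 39 features, 24 were below 0 with a median of −0.12, and reads summed per symbol turned the median to 0.04. MAOA, which degrades monoamines, had a feature at 7.15, 7.9 and 9.13 CPM in dark contrast brains, against 11.8, 12.4 and 12.1 CPM in blank contrast brains. HTR5A, a serotonin receptor, was read at 10.4, 12 and 12.8 CPM, against 15.2, 16.1 and 15.8 CPM, and DRD4, a dopamine receptor, at 1.6, 1.1 and 2.91 CPM, against 3.79, 3.18 and 3.35 CPM. These 3 were separate and were the 3 members with an unadjusted p under 0.05 (7.69%, against 3.74% of features with a symbol lower). HTR5A and DRD4 have a single feature, whereas the most abundant MAOA feature overlapped at 19.8, 19.6 and 18.7 CPM, against 21.5, 17.1 and 20.3 CPM, and the MAOA sum gave −0.19. The synthesis enzymes overlapped: TPH2 for serotonin was read at 57.7, 57.8 and 62.8 CPM in dark contrast brains and 55.2, 66.1 and 53.9 CPM in blank contrast brains, and TH for dopamine at 8.66, 6.73 and 6.38 CPM and 10.4, 8.77 and 7.6 CPM.

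Ion channels varied in both directions. Of 91 potassium channel features, 54 were below 0 (median −0.08), with 2 lower (2.2%, against 3.74% of features with a symbol) and 2 higher at an unadjusted p under 0.05. Of 110 sodium and calcium channel features, 68 were below 0 (median −0.05), with 3 lower (2.73%) and 2 higher. Without dark contrast brain 1 the medians were −0.001 and −0.017, and without blank contrast brain 3 they were −0.013 and −0.027. CACNA1D, an L-type calcium channel, had a feature at 93.1, 88.1 and 86.3 CPM in dark contrast brains, against 72.1, 73.8 and 76.1 CPM in the blank contrast brains (log2 fold change 0.27), and its summed reads gave 0.26. Cacna2d2, an auxiliary calcium channel subunit, was lower at 42.9, 49.5 and 33.8 CPM, against 55.1, 76.4 and 63.2 CPM (log2 fold change −0.63), with a sum over its features of −0.38. Both named features were separate between the groups. Kcnj9, a potassium channel opened by G proteins, was read at 48.4, 25.1 and 29.1 CPM, against 23.2, 16.6 and 24.4 CPM (log2 fold change 0.68). kcnma1, the calcium-activated potassium channel, had features that stood in opposite directions, at 46.7, 45.8 and 44.2 CPM, against 58.5, 50.9 and 69.6 CPM, and at 42.6, 47.7 and 42.5 CPM, against 30, 42.2 and 27.1 CPM, with a sum of 0.07.

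**Figure D5:**
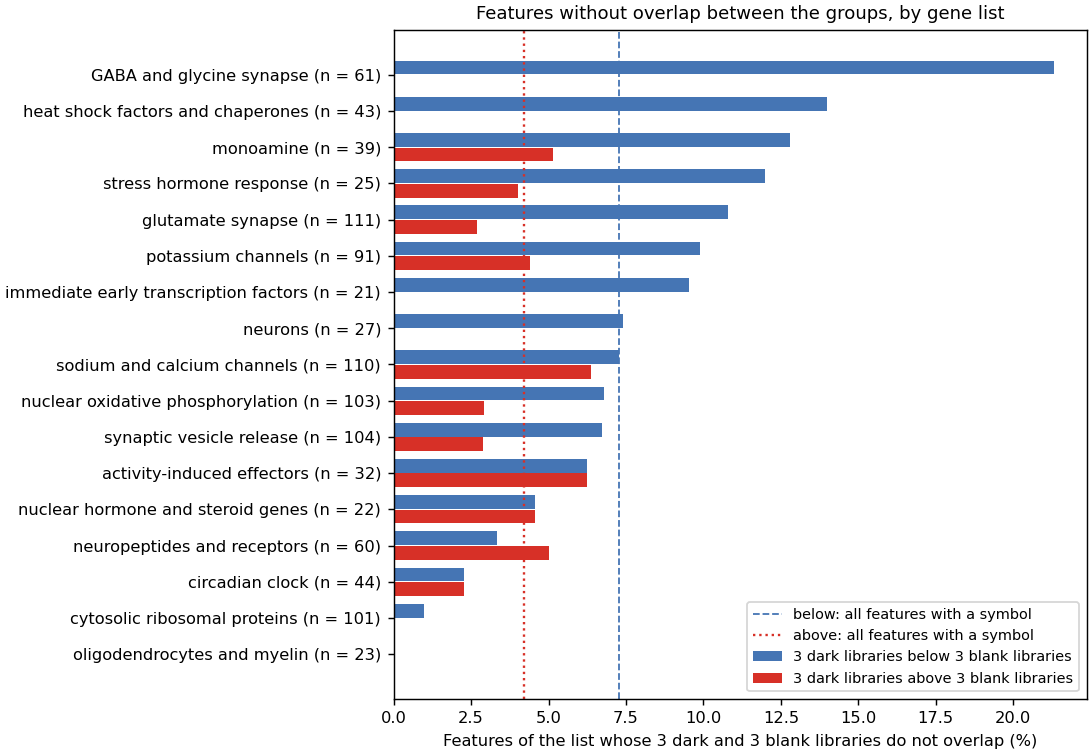
Share of the features of each list, for lists with at least 20 features, in which the 3 dark contrast libraries lie wholly below or wholly above the 3 blank contrast libraries, with dashed lines at the shares of all features with a symbol, 7.26% below and 4.21% above. The GABA and glycine list has 21.3% below and 0% above.

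Neuropeptides and their receptors were evenly divided, as 27 of their 60 features lay below 0 (median 0.02). nmu, the gene of the feeding and stress peptide neuromedin U, was read at 3.62, 3.71 and 7.03 CPM in dark contrast brains, against 2.55, 2.55 and 2.09 CPM in the blank contrast brains (log2 fold change 0.995), while both its features together gave 0.41. SSTR3, a somatostatin receptor, was read at 1.26, 3.02 and 3.8 CPM, against 7.35, 3.75 and 7.37 CPM (log2 fold change −1.19), and its highest dark contrast brain overlapped its lowest blank contrast brain. Galanin, an inhibitory hypothalamic peptide, had features at 22.8, 21.8 and 23.3 CPM, against 12.8, 20.8 and 19.5 CPM, and at 13.8, 20.8 and 19.5 CPM, against 13.7, 10.3 and 10.6 CPM, both separate, with a sum of 0.51.

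Hormone receptors and steroid enzymes were also divided, with 12 of 22 features below 0 and 2 higher and 1 lower (4.55%, against 3.74%) at an unadjusted p under 0.05. Esrra, an orphan receptor that controls mitochondrial genes, was read at 18.2, 11.5 and 12.4 CPM in dark contrast brains, against 10.9, 4.81 and 9.68 CPM in the blank contrast brains (log2 fold change 0.73, SE 0.329), and was separate. CYP19A1, the aromatase that makes oestrogen in the brain, overlapped at 3.45, 3.64 and 6.95 CPM, against 4.02, 6.15 and 5.59 CPM. ESR2, an oestrogen receptor, overlapped at 4.12, 3.57 and 5.58 CPM, against 4.25, 3.04 and 2.83 CPM.

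Light-related lists gave few differences. GNAT2, the cone transducin subunit, was read at 12.2, 13.1 and 12.7 CPM in dark contrast brains, against 14.7, 20.9 and 27.0 CPM in the blank contrast brains (log2 fold change −0.72, SE 0.269, adjusted p 0.854 in edgeR). The groups were separate, with little spread in the dark contrast brains and a wide one in the blank contrast brains, and cue brains spanned 9.43 to 21.8 CPM. GNAT2 was 1 of 6 features in its list, of which 4 were below 0. RGR, a retinal photoisomerase, overlapped at 51.6, 63.2 and 65.5 CPM, against 55.9, 53.4 and 57.6 CPM. It was the only opsin-family member of the list, so the list does not show whether other opsins of the brain differed. The 44 clock features were divided evenly, 22 below 0 with a median of −0.01, and only an Nr1d1 feature had an unadjusted p under 0.05. That feature of Nr1d1, a repressor of the clock loop, was read at 16.3, 10.6 and 9.7 CPM in dark contrast brains and 9.36, 5.37 and 8.79 CPM in the blank contrast brains (log2 fold change 0.64, SE 0.249), separate by a small margin. It holds 11.6% of the symbol's reads. Both more abundant features of the symbol overlapped, at log2 fold changes of 0.20 and −0.02, and the sum gave 0.19. PER1, which light induces in mammals, overlapped at 45.4, 32.4 and 68.9 CPM, against 51.1, 40.8 and 48.6 CPM, as did PER2 at 7.4, 8.17 and 10.7 CPM, against 8.82, 7.57 and 9.09 CPM.

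Of 43 chaperone and heat shock factor features, 28 were below 0 (65.1%, against 54.7% of features with a symbol) with a median of −0.11. At an unadjusted p under 0.05, 3 were lower (6.98%, against 3.74%) and 0 higher. There were 6 wholly below the blank contrast brains (14%, against 7.26%) and 0 above. The median was 0.005 without blank contrast brain 2 and −0.004 without dark contrast brain 2. Hsf2, a heat shock transcription factor, had a feature at 18.3, 18.7 and 20 CPM in dark contrast brains, against 26.1, 26.6 and 32.2 CPM in the blank contrast brains (log2 fold change −0.57, SE 0.135, adjusted p 0.777 in edgeR and 0.027 in DESeq2). The dark contrast brains were below all 12 others in that feature, and the 4 features of the symbol together gave −0.19. hspa5, the chaperone of the endoplasmic reticulum, was read at 219, 207 and 222 CPM in dark contrast brains, against 279, 346 and 265 CPM in the blank contrast brains (log2 fold change −0.46, SE 0.14, adjusted p 0.854 in edgeR). STIP1, a co-chaperone that hands clients between heat shock proteins, was read at 137, 126 and 132 CPM, against 175, 155 and 214 CPM. Both were separate between the groups, within cue ranges of 183 to 311 CPM for hspa5 and 74.5 to 180 CPM for STIP1 except for the highest blank contrast brain of each. The most abundant heat shock features overlapped, with Hsp90ab1 at 2990, 2620 and 2980 CPM, against 2810, 3010 and 2520 CPM, and Hspa8 at 2920, 2410 and 3100 CPM, against 2850, 3230 and 3140 CPM.

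Stress hormone genes were even in sign, with 13 of 25 features below 0. At an unadjusted p under 0.05, 2 were lower (8%, against 3.74% of features with a symbol) and 1 higher. There were 3 wholly below the blank contrast brains (12%, against 7.26%) and 1 wholly above (4%, against 4.21%). Errfi1, an inhibitor of growth factor receptors induced by glucocorticoids in mammals, was read at 10.5, 7.21 and 8.41 CPM in dark contrast brains, against 17.3, 12.9 and 12.1 CPM in the blank contrast brains (log2 fold change −0.70, SE 0.216). The groups were separate for Errfi1. crh, the peptide that starts the stress axis, overlapped at 16.7, 14.2 and 13.2 CPM, against 14.9, 15.8 and 13.6 CPM.

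pomc had the largest difference among the list members, and its level marks pituitary tissue. It encodes the precursor of the stress hormone ACTH and of pigment hormones, and was read at 397, 5040 and 453 CPM in dark contrast brains, against 11.7, 65.6 and 38.9 CPM in the blank contrast brains (log2 fold change 5.66, SE 1.73, adjusted p 0.854 in edgeR and 0.0271 in DESeq2). The groups did not overlap, but dark contrast brain 2 was more than 10 times the other dark contrast brains, and the cue brains ranged from 11.7 to 7690 CPM. cga, the shared subunit of the pituitary glycoprotein hormones, was read at 5.97, 14.3 and 0.97 CPM, against 10.7, 4.88 and 1.27 CPM, and did not follow pomc in all brains. The 3 pituitary marker features summed to 406, 5060 and 460 CPM in dark contrast brains and 25.3, 73.1 and 44.5 CPM in blank contrast brains. The part of the amount of pituitary dissected with each brain in the pomc difference was not tested.

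Genes for protein synthesis stood slightly the other way. Of 101 ribosomal protein features, 31 were below 0 and the median was 0.07. Only 1 was wholly below (0.99%, against 7.26% of features with a symbol) and 0 wholly above (0%, against 4.21%). Summed CPM was 85300, 62100 and 68000 in dark contrast brains and 65100, 72000 and 69500 in blank contrast brains, so dark contrast brain 1 was the highest of the 6, and without it the median was −0.08. These features are short, with a median length of 810 bases. All 8 mitochondrially encoded features were below 0 with a median of −0.17. Dark contrast brain 2 was the lowest of the 6 in 7 of the 8 (87.5%, against 16.5% of features with a symbol). Without that brain 5 of the 8 were below 0 and the median was −0.08. With all libraries 0 of 8 were separate and 0 had an unadjusted p under 0.05. In a list of 8 features, counts of 0 are near the shares of features with a symbol: 7.26% wholly below, 4.21% wholly above, and 3.74% lower at that p.

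Nuclear genes of oxidative phosphorylation gave 44 of 103 features below 0 and a median of 0.04. NDUFS8, a complex I subunit, was read at 36.6, 19.4 and 52.8 CPM in dark contrast brains, against 59.6, 61.4 and 59.7 CPM in the blank contrast brains (log2 fold change −0.73). sdhb, a complex II subunit, was read at 166, 155 and 123 CPM, against 126, 114 and 117 CPM (log2 fold change 0.31). NDUFS8 was separate, with a wide spread in dark contrast brains, and sdhb overlapped.

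The neuronal, astrocyte, myelin and microglial lists had medians of −0.04, −0.13, −0.11 and 0.06. Leaving out 1 library at a time moved them between −0.09 and 0.02, −0.22 and 0.04, −0.25 and 0.06, and −0.21 and 0.74, where the last value was without blank contrast brain 3. The pituitary and inner ear lists, of 3 and 10 features, had medians of 0.46 and 0.20. In the brain cell type lists 2 of 27 neuronal features (7.41%) and 1 of 14 astrocyte features (7.14%) were wholly below the blank contrast brains. So were 2 of 16 endothelial and pericyte features (12.5%) and 1 of 18 ependymal features (5.56%), against 7.26% of features with a symbol. In the lists of 23 myelin and 10 microglial features 0 were separate. In each of these lists 0 were wholly above, against 4.21%. MBP, the main myelin protein, overlapped at 7000, 5650 and 6760 CPM in dark contrast brains and 5140, 7720 and 6930 CPM in blank contrast brains. SLC1A2, the glial glutamate transporter, had the only separate astrocyte feature, at 29.7, 41.6 and 19.2 CPM, against 55, 48.5 and 54.4 CPM (log2 fold change −0.80, SE 0.256). A feature with the symbol NOTCH3, a receptor of pericytes and vascular muscle, was read at 37.2, 37.9 and 36.9 CPM, against 48, 46.8 and 43.7 CPM (log2 fold change −0.31). The dark contrast brains were below all 12 other brains in it. Its deposited description is notch homolog protein 2, so its identity is uncertain. For blood, the haemoglobin feature HBB overlapped at 644, 602 and 516 CPM in dark contrast brains and 497, 352 and 780 CPM in blank contrast brains. A skin keratin, KRT19, was read at 162, 169 and 42.7 CPM, against 154, 316 and 144 CPM.

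Neither background passed the test against the 9 cue brains. Dark contrast brains against the mean of the cue groups gave 0 features past an adjusted p of 0.05 in edgeR (0%), 2363 at an unadjusted p under 0.05 (5.54%; 2.8% higher and 2.74% lower) and 42 in DESeq2. Blank contrast brains against the same cue brains gave 0 in edgeR (0%), 1934 unadjusted (4.54%; 2.29% higher and 2.25% lower) and 26 in DESeq2. These comparisons share the cue libraries with each other and the control libraries with the main comparison, so their values are given only side by side. Lmln had a log2 fold change of −1.87 ± 0.246 (SE) in dark contrast brains against cue brains and −0.10 ± 0.215 in blank contrast brains against cue brains, and Khk had −2.22 ± 0.331 and −0.40 ± 0.283. For hnrnpc the feature higher in dark contrast brains had 0.44 ± 0.319 in dark contrast brains and −1.55 ± 0.367 in blank contrast brains. INPP5A lay on either side, at −1.99 ± 0.479 in dark contrast brains and 0.83 ± 0.393 in blank contrast brains. Over all features, the 3 dark contrast brains lay outside the other 12 libraries in 113 features above (0.265%) and 148 below (0.347%), and the 3 blank contrast brains in 93 above (0.218%) and 95 below (0.223%).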

How the data were processed

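The labels' protocol gives RNAlater preservation, Trizol extraction, NEBNext Ultra libraries and paired Illumina reads. The authors' deposited table holds estimated counts and FPKM (fragments scaled by feature length and library depth) for 44351 features, per the file headers. Assembler, aligner, quantifier and strand: not given in the sources used here. No value is below 0.31 FPKM, so features under some limit had been removed. Features with a mean of at least 1 FPKM over 15 libraries were kept (42619, of which 17950 have a symbol). Counts were rounded and fitted for all 5 groups at once with edgeR 4.0.16 (TMM scaling, quasi-likelihood test, Benjamini-Hochberg adjustment over all features), after a check on simulated counts. Alternatives used DESeq2 1.42.0, limma 3.58.1 on log2 values with a pseudocount of 1 or 0.1, other filters and scalings, sums per symbol, and leaving out each library. SE is the standard error of a log2 fold change; levels are TMM-scaled CPM. "Separate" means that the 3 values of a group lie all above or all below those of the other.

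Named features are the 12 with a symbol and the smallest unadjusted p in each direction, up to 10 DESeq2 calls, list members with an unadjusted p under 0.05 and the most abundant members; a few more members of the lists, and features sharing a named symbol, were chosen after their values were seen. The members and lists were chosen with earlier results of these data known. Nothing in the labels says that libraries came from separate animals, so p-values measure the spread between these libraries only. Some genes are counted in the lists but not reported here. Replicates differed beyond sampling noise. Reads of near-identical features, or of overlapping antisense genes, may have been split between them.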

Additional observations from a re-analysis of the deposited data

How the results depend on the processing

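No adjusted call was made by edgeR in any of the 6 fits that left out 1 library, where features at an unadjusted p under 0.05 numbered 2153 to 2713. DESeq2 called 46 features, limma on log2(FPKM + 0.1) called 1, and sums per symbol left 657 at an unadjusted p under 0.05. Against the cue brains DESeq2 called 42 features for dark contrast and 26 for blank contrast, and leaving out 1 control library gave 0 to 1 for each. Those calls were Luc7l without dark contrast brain 1 (adjusted p 0.038 in edgeR) and CCT7 without blank contrast brain 3 (adjusted p 0.0249 in edgeR). The cause of these differences was not tested.

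The shared replicate numbers did not pair the libraries, with correlations of deviations of 0.003, 0.018 and 0.016; a fit with the number as a replicate block called 0 features and left 2405 at an unadjusted p under 0.05 for dark against blank contrast, 2349 for dark contrast against cue brains and 1938 for blank contrast against cue brains.

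Signs reversed in reads summed per symbol for Gemin7 (0.12), GRIK1 (0.11), kcnma1 (0.067), Kcnc1 (−0.25), and CACNA1C (−0.053), since other features of the symbol stood the other way, and for Pcdh15 (0.025), a single feature near 0. Leaving out 1 library at a time gave ranges that cross 0 for marker features: −0.077 to 0.301 and −0.21 to 0.606 for the Enpp2 features, −0.12 to 0.467 for HBB, −0.37 to 0.034 for CA2, −0.69 to 1.206 for cga, −0.128 to 0.089 for Pcdh15 (0.001 in limma) and −0.398 to 0.095 for krt18-b. Depth limits features at a few CPM, and 3 libraries a side limit all.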
